A study of Mus musculus with 6 samples.

Results

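The genes described here are the mitochondrial carriers of the SLC25 family, the 3 voltage-dependent anion channels (Vdac1, Vdac2 and Vdac3) and the 2 subunits of the mitochondrial pyruvate carrier (Mpc1 and Mpc2). They were chosen by symbol: every gene whose symbol starts with Slc25a, 45 in all, and the 5 VDAC and MPC genes, without the processed pseudogenes. These are 50 of the 26469 genes in the count table. RNA was sequenced from 6 samples of mouse splenic CD4 T cells that had been sorted as naive cells and driven towards regulatory T cells (Tregs). The 3 mutant samples came from Sf3b1K700E/fl mice that carried Cd4Cre. This recombinase, driven by the Cd4 promoter, switches on the K700E allele of the splicing factor Sf3b1 in T-lineage cells, and these samples bear the genotype "Sf3b1 mutation". The 3 control samples came from mice with the same Sf3b1K700E/fl alleles but no Cre, and bear the genotype "WT". All 6 were cultured for 36 h under T cell activation through CD3 and CD28, in TGF-β at 5 ng/ml and with IL-4 and IFNγ blocked by antibodies. Neither the age of the animals nor the number of animals behind each group is given in the sources used, and the p-values therefore describe the spread among these 6 samples, part of which may be technical.

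Small metabolites enter a mitochondrion through 2 barriers. VDAC proteins form barrel-shaped pores through the outer membrane and let nucleotides, phosphate, pyruvate and other small anions pass. The inner membrane is tight, and each metabolite needs a carrier of its own there: SLC25 proteins exchange ADP for ATP, import phosphate, move carboxylates, amino acids, cofactors and iron, while pyruvate enters through the MPC1-MPC2 pair. Activated T cells draw on these routes as they grow, because citrate exported from mitochondria feeds lipid synthesis and the malate-aspartate shuttle returns reducing equivalents from glycolysis.

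Of the 50 genes, 45 had enough counts to be tested. Slc25a31, Slc25a34, Slc25a41, Slc25a43 and Slc25a48 did not, with at most 7 counts in any library. Levels are given as CPM, which are counts relative to the library total after TMM scaling, and differences as log2 fold changes, mutant minus control. Library totals ran from 33633196 to 43928723 counts. The mutant libraries were more spread than the control libraries (common biological coefficient of variation 0.35 among mutants and 0.226 among controls), and without mutant 1, which stood apart, the value for mutants was 0.236. All 10 T cell markers checked were detected, with a summed level of 2376 to 3620 CPM in mutant and 2030 to 2845 CPM in control libraries. Foxp3, which defines Tregs, was at 230, 118 and 52.3 CPM in mutant libraries and 119, 139 and 108 CPM in control libraries. Sf3b1 itself was at 649, 593 and 639 CPM in mutant and 632, 712 and 638 CPM in control libraries, which gives no view of the allele used. In bulk samples, fewer cells of a type and less RNA per cell cannot be told apart.

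No member passed edgeR's quasi-likelihood test at an adjusted p of 0.05 (0 of 45), and no gene of the whole table did (0%), the lowest adjusted p of all 18323 genes tested being 0.598. At an unadjusted p under 0.05, 5 members were lower in mutant cells (background 3.48% of all genes tested) and 1 was higher (background 4.14%). DESeq2 called 1 member, Vdac1, lower, against a background of 0.307% of the genes to which it gave an adjusted p, and no member higher (background 0.333%). Limma-voom called none (0%).

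2 sets of sequences are given, and the first shows how far the counts of these genes can be told apart. Vdac3 has a processed pseudogene, Vdac3-ps1, that is transcribed or receives reads in these cells, and 849 bases of the 852-base coding sequence align to it with 4 differences, an identity of 99.5%. The stretch below, in which capitals mark the bases that differ, covers coding positions 329 to 448 of Vdac3 (chromosome 8) and positions 326 to 445 of Vdac3-ps1 (chromosome 13), from the GENCODE M21 transcripts.

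Vdac3: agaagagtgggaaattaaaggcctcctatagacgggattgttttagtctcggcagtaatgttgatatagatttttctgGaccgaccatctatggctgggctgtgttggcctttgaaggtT
Vdac3-ps1: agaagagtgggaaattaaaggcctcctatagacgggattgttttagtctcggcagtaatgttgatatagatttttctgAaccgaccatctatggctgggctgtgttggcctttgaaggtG

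Of all 50-base windows of the longest Vdac3 coding transcript, 47.5% occur in another gene's transcript, against 1.88% for Vdac1 and 10.3% for Vdac2. No 50-base window is shared between any 2 of the 3 VDAC genes, so reads of this length without mismatches cannot be exchanged among them. Of 100-base windows, 34.4% are shared for Vdac3, 0% for Vdac1 and 0.916% for Vdac2, and the read length is not given. The counts assigned to Vdac3-ps1 came to between 79.4% and 91.3% of those assigned to Vdac3 in the 6 libraries, and the level of Vdac3 is uncertain for that reason. Mpc1 has a copy of the same kind. Of the 501 coding bases of Mpc1, 258 align to Mpc1-ps, which is 330 bases long, and these show 0 differences. Of the windows of the longest Mpc1 coding transcript, 29.6% of 50 bases and 19.7% of 100 bases are shared. The counts of Mpc1-ps were between 25.9% and 54.2% of those of Mpc1. Among the 45 tested members, 24 share no 50-base window with another gene and 8 share over 10% of theirs. Beside Vdac2, Vdac3 and Mpc1 these are Slc25a5 (46.6%), Slc25a35 (25.8%), Slc25a33 (12.6%), Slc25a36 (11.8%) and Slc25a40 (10.3%). The copy Gm5560, which shares the most with Slc25a5, was assigned 1112 to 1888 counts per library, against 17290 to 31905 for Slc25a5.

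The second sequence is the region around one start site of Vdac1, the member with the smallest p. RefSeq promoters (250 bases before to 50 after a start) were at hand for 37 of the 50 members. The second Vdac1 start site, chr11:52361347-52361646 on the plus strand of GRCm38.p6, holds 3 GC boxes, the letters GGGCGG, given in capitals.

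Vdac1 promoter: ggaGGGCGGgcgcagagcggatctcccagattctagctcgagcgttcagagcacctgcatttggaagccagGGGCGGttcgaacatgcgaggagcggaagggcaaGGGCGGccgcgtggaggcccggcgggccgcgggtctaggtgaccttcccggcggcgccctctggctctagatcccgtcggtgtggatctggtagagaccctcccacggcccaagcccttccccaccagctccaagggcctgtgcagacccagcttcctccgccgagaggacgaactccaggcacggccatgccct

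The other Vdac1 start site in that table, chr11:52360601-52360900, holds none. Over both strands, GGGCGG was found in 42 of 48 member promoters (87.5%), and in 35.7% of the 32851 promoters of the whole table. The E-box CACGTG was found in 16.7% of member promoters and 7.15% of all promoters, and CCAAT in 47.9% of member promoters and 37.4% of all. TATAAA was found in 2.08% of member promoters and 13.6% of all. None of these motifs contains another. A match is a description of the letters and not of a bound site.

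Vdac1 (ENSMUSG00000020402), the outer membrane pore that also binds hexokinase, had the lowest log2 fold change of the tested members, its RNA in mutant cells being at 51.0% of that in control cells. It was at 141, 130 and 175 CPM in mutant 1, 2 and 3, against 265, 332 and 278 CPM in control 1, 2 and 3. The 3 mutants were all below the 3 controls, and the gap between the groups exceeded the spread within the mutants. The means were 149 ± 23.3 CPM in mutant and 292 ± 35.8 CPM in control cells (SD, n = 3 each). On the log2 scale the difference was -0.97 ± 0.17 (SE; 95% interval from -1.36 to -0.59). Its adjusted p was 0.598 by edgeR's quasi-likelihood test, and 8 genes of the table had a smaller unadjusted p. With DESeq2 the log2 fold change was -0.99 and the adjusted p 0.00534. The DESeq2 call was lost without control 3 (adjusted p 0.179), and was kept in the other 5 fits that left out 1 library, with an adjusted p of 0.0489 without control 1 and 0.0444 without mutant 2. Without mutant 1 the edgeR log2 fold change was -0.92. With each library left out in turn it lay between -1.11 and -0.86.

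Vdac2 (ENSMUSG00000021771), the isoform that in mammalian cells holds the apoptosis protein BAK at the outer membrane, was at 163, 196 and 224 CPM in mutant and 211, 265 and 227 CPM in control libraries. The groups overlapped at mutant 3, and the log2 fold change was -0.27 ± 0.16 (SE; adjusted p 0.734 by edgeR). Vdac3 (ENSMUSG00000008892), the third and least abundant pore here, was at 59.5, 76.4 and 77.2 CPM in mutant and 83.3, 94.5 and 81.5 CPM in control libraries. Its groups did not overlap, but mutant 3 and control 3 were close, and the log2 fold change was -0.28 ± 0.15 (SE; adjusted p 0.713 by edgeR). Without mutant 1 the log2 fold changes were -0.15 for Vdac2 and -0.16 for Vdac3, and without control 2 that of Vdac2 was -0.18. Vdac3-ps1 was also lower in all 3 mutants, at 47.2, 63.7 and 65.1 CPM in mutant and 70.9, 86.3 and 72.7 CPM in control libraries. With the counts of the gene and its copy summed, the log2 fold change of Vdac3 was -0.33.

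**Figure D1:**
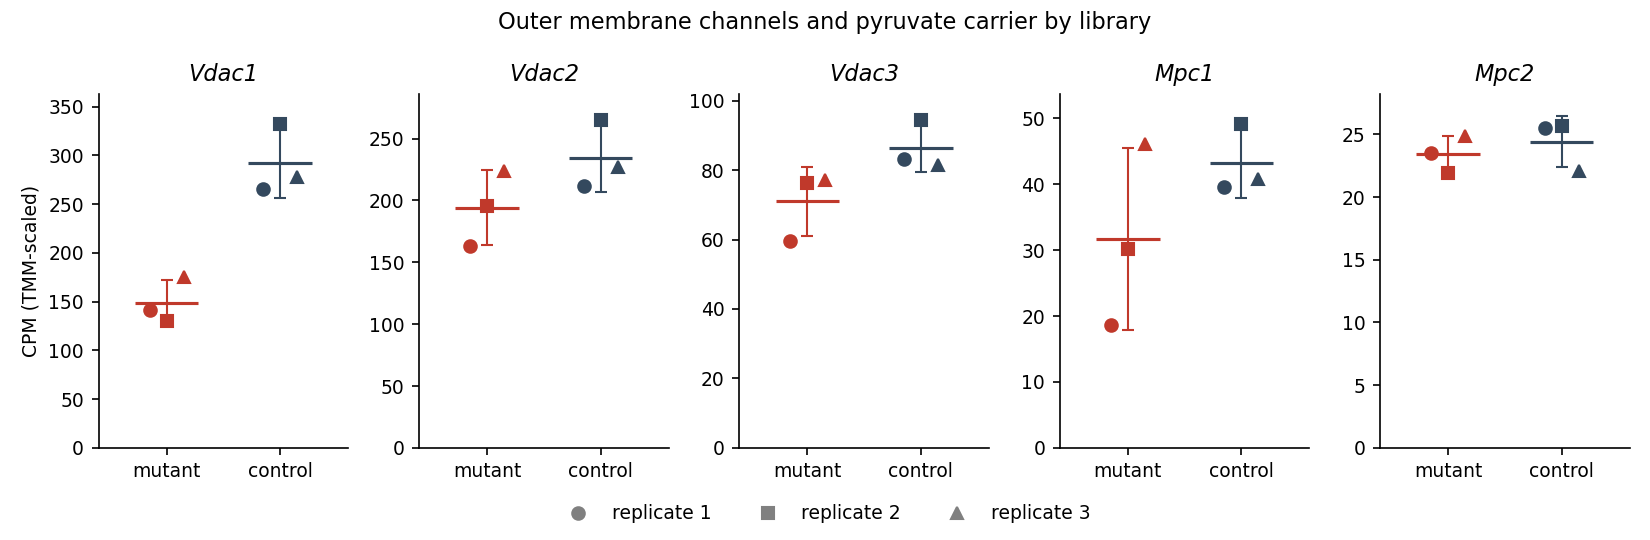
Level in CPM (TMM-scaled, linear axis from 0) of the 3 VDAC and 2 MPC genes in each of the 3 mutant (left, red) and 3 control (right, dark) libraries; symbols mark the replicate, the line the mean and the bar the SD. Vdac1 sits between 130 and 175 CPM in mutants, and between 265 and 332 CPM in controls, while the groups of Vdac2, Mpc1 and Mpc2 overlap.

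The ratio of 2 genes within a library does not depend on how the library is scaled. Vdac1 had 0.863, 0.665 and 0.783 counts per count of Vdac2 in mutant 1, 2 and 3, against 1.26, 1.25 and 1.22 in control 1, 2 and 3. Vdac1 thus had fewer counts than Vdac2 in every mutant library and more in every control library. The log2 ratio averaged -0.38 ± 0.19 in mutant and 0.32 ± 0.02 in control cells (SD, n = 3 each), a difference of -0.70. Against Vdac3, Vdac1 had 2.37, 1.70 and 2.27 counts per count in mutant and 3.18, 3.52 and 3.41 in control libraries, a difference in log2 ratio of -0.69, and of -0.64 with Vdac3-ps1 added to Vdac3. Both differences gave p = 0.1 in the exact two-sided permutation test over samples, the smallest that 3 against 3 allows, and 0.5 after adjustment over the 10 pairs compared. Vdac2 to Vdac3 differed by 0.01 on the log2 scale (exact permutation p = 0.9), with 2.75, 2.56 and 2.90 counts per count in mutant and 2.54, 2.80 and 2.78 in control libraries.

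Per kilobase of the longest coding transcript, Vdac1 was at 73.6 ± 11.5 CPM per kb in mutant and 144 ± 17.7 CPM per kb in control cells (SD, n = 3 each). Vdac2 was at 99.4 ± 15.4 CPM per kb in mutant and 120 ± 14.2 CPM per kb in control cells. Vdac3 was at 49.9 ± 7.02 CPM per kb in mutant and 60.7 ± 4.96 CPM per kb in control cells. In the order of levels per kb over all members, Slc25a5 and Slc25a3 came first and second in both groups. Vdac1 had rank 4 in mutant and rank 3 in control cells, Vdac2 the reverse, and Slc25a4, at 73.4 ± 12.5 CPM per kb in mutants, did not differ from Vdac1 there beyond their spread. The 3 pores together came to 195, 218 and 255 CPM per kb in mutant and 298, 367 and 311 CPM per kb in control libraries. Vdac1 made up 35.7%, 29.5% and 33.9% of that sum in mutant and 44.0%, 44.9% and 44.2% in control libraries, without overlap of the groups.

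The pyruvate carrier did not pass the test in either subunit. Mpc1 (ENSMUSG00000023861), the subunit that is often low in tumours, was at 18.6, 30.2 and 46.1 CPM in mutant and 39.5, 49.1 and 40.8 CPM in control libraries. Mutant 1 had the lowest and mutant 3 the second highest level of all 6 libraries. The log2 fold change was -0.45 ± 0.30 (SE; adjusted p 0.743 by edgeR), -0.16 without mutant 1 and -0.83 without mutant 3. Mpc2 (ENSMUSG00000026568), its partner, was at 23.5, 21.9 and 24.8 CPM in mutant and 25.5, 25.6 and 22.1 CPM in control libraries. The groups overlapped, with a log2 fold change of -0.06 ± 0.14 (SE) and a 95% interval from -0.39 to 0.27. There were 0.794, 1.38 and 1.86 counts of Mpc1 per count of Mpc2 in mutant and 1.55, 1.92 and 1.85 in control libraries (exact permutation p = 0.3).

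The tested members as a whole showed no common direction. Of the 45 tested members, 24 had a log2 fold change below 0 (background 47.1%) and 21 above (background 52.9%). All 3 VDAC and the 2 MPC genes were among the 24, and the 21 were all SLC25 genes. The median of the 45 was -0.05, against 0.02 over all genes tested, and the median of the SLC25 genes alone was 0.00. The median size of the log2 fold change was 0.23 for the members and 0.23 for all genes. In 7 members the 3 mutant libraries all lay below the 3 control libraries (background 7.48%): Vdac1, Vdac3, Slc25a1, Slc25a15, Slc25a30, Slc25a37 and Slc25a46. In 3 members, Slc25a29, Slc25a38 and Slc25a42, they all lay above (background 6.6%). The 7 held under each of 4 ways of scaling the libraries, as did Slc25a38 and Slc25a42, while the groups of Slc25a29 overlapped under DESeq2's size factors.

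**Figure D2:**
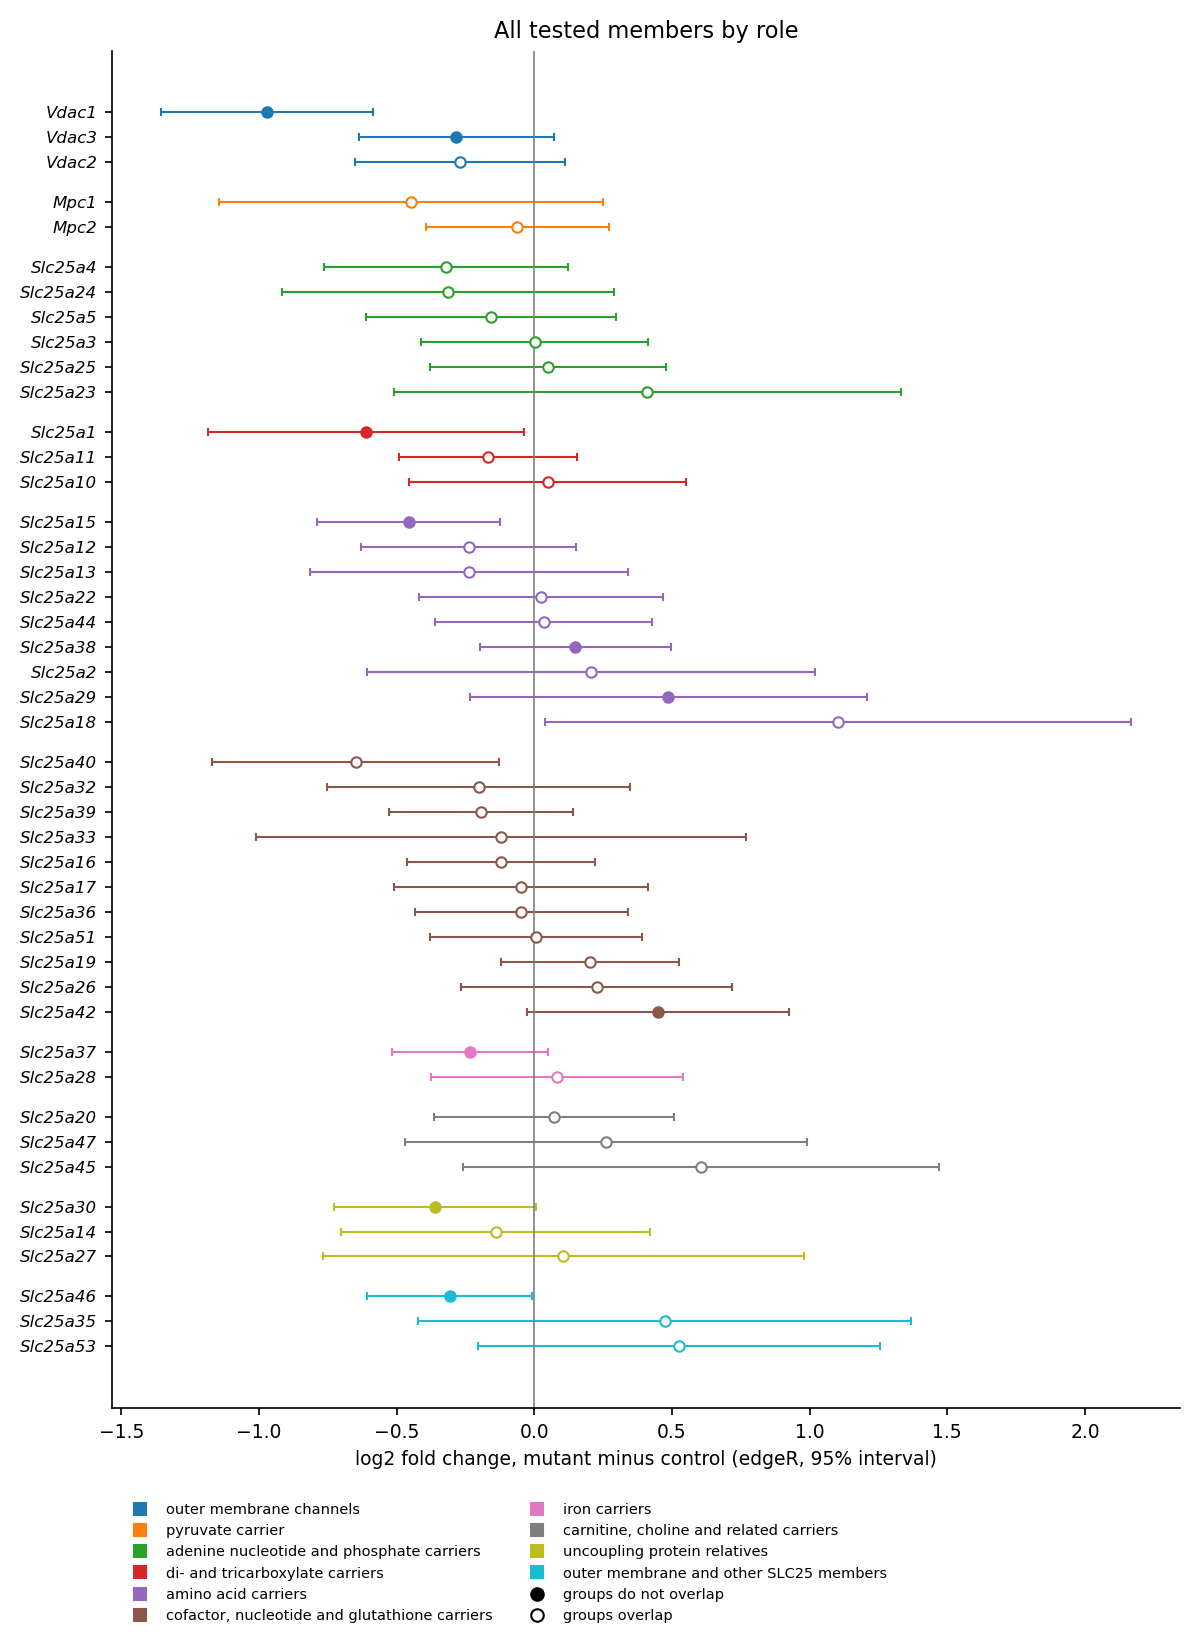
Log2 fold change, mutant minus control, with its 95% interval (edgeR), for the 45 tested members, grouped and coloured by role; filled points mark members whose groups of 3 libraries do not overlap, open points those that overlap. Vdac1 at -0.97 is the lowest point and the other members lie on both sides of 0, up to Slc25a18 at 1.10.

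The adenine nucleotide and phosphate carriers, which supply the ATP synthase and export its product, held the most abundant members. Slc25a5, the ADP/ATP translocase of dividing cells, was at 489, 544 and 626 CPM in mutant and 523, 784 and 543 CPM in control libraries, with a log2 fold change of -0.16 ± 0.20 (SE). Slc25a3, the phosphate carrier, was at 428, 493 and 553 CPM in mutant and 437, 596 and 440 CPM in control libraries, with a log2 fold change of 0.00 ± 0.18 (SE). Slc25a4, the translocase of heart and muscle, was at 114, 161 and 149 CPM in mutant and 155, 215 and 159 CPM in control libraries, with a log2 fold change of -0.32 ± 0.19 (SE). The groups overlapped in all 3, and control 2 was the highest library for each of them. Without control 2 the log2 fold changes were 0.05 for Slc25a5, 0.16 for Slc25a3 and -0.16 for Slc25a4, and without mutant 1 that of Slc25a4 was -0.18. The ratio of Slc25a5 to Slc25a4 was 4.28, 3.39 and 4.20 in mutant and 3.37, 3.65 and 3.42 in control libraries (exact permutation p = 0.3). The calcium-regulated ATP-Mg/phosphate carriers Slc25a24 and Slc25a23 overlapped between groups too. Slc25a24 was at 15.9, 20.4 and 10.5 CPM in mutant and 18.7, 16.4 and 23.1 CPM in control libraries. Slc25a23 was at 20.7, 10.5 and 6.19 CPM in mutant and 10.1, 9.55 and 8.45 CPM in control libraries, and its log2 fold change of 0.41 ± 0.40 (SE) was -0.16 without mutant 1. Of the 6 tested genes of this group, 3 had a log2 fold change below 0 and 3 above, from -0.32 to 0.41, and none had groups without overlap.

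Among the carboxylate carriers, Slc25a1, which exports citrate for lipid synthesis, was at 23.3, 45.8 and 44.0 CPM in mutant and 59.0, 56.0 and 57.9 CPM in control libraries. All 3 mutant libraries were lower, mutant 1 by far the most. The log2 fold change was -0.61 ± 0.25 (SE; unadjusted p 0.0392 and adjusted p 0.645 by edgeR), and -0.35 without mutant 1. Slc25a11, the oxoglutarate carrier of the malate-aspartate shuttle, was at 50.5, 45.8 and 41.3 CPM in mutant and 51.6, 55.1 and 47.8 CPM in control libraries. Its groups overlapped, and its log2 fold change was -0.17 ± 0.14 (SE), or -0.10 without mutant 3. The dicarboxylate carrier Slc25a10 had a log2 fold change of 0.05, between -0.13 and 0.18 with single libraries left out.

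Of the 9 amino acid carriers, 3 had a log2 fold change below 0 and 6 above. Slc25a15, the ornithine carrier of the urea cycle, was at 30.2, 24.1 and 29.3 CPM in mutant and 38.0, 38.0 and 38.6 CPM in control libraries. The control libraries lay within 1 CPM of each other and all mutants lay below them. The log2 fold change was -0.46 ± 0.14 (SE; unadjusted p 0.0135 and adjusted p 0.629 by edgeR), and leaving out single libraries kept it between -0.50 and -0.34. The 2 aspartate-glutamate carriers overlapped between groups. Slc25a12, or aralar, was at 66.6, 58.0 and 45.6 CPM in mutant and 62.5, 72.2 and 66.0 CPM in control libraries. Slc25a13, or citrin, was at 17.1, 30.0 and 33.5 CPM in mutant and 29.8, 35.6 and 29.7 CPM in control libraries. The mutants ran in opposite orders for these paralogues, so that Slc25a13 had 0.257, 0.518 and 0.735 counts per count of Slc25a12 in mutant 1, 2 and 3, and 0.478, 0.493 and 0.450 in control 1, 2 and 3 (exact permutation p = 1).

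Slc25a18, a glutamate carrier, was at 2.83, 1.19 and 1.71 CPM in mutant and 1.19, 0.516 and 0.964 CPM in control libraries. Mutant 2 and control 1 were level, and the log2 fold change of 1.10 ± 0.46 (SE; unadjusted p 0.0441 and adjusted p 0.645 by edgeR) was 0.72 without mutant 1. Slc25a29, a carrier of basic amino acids, was at 2.85, 2.04 and 1.96 CPM in mutant and 1.48, 1.94 and 1.46 CPM in control libraries. Slc25a38, the glycine carrier needed for haem synthesis, was at 17.7, 16.2 and 16.1 CPM in mutant and 14.5, 15.8 and 14.8 CPM in control libraries. In both, the highest control was just under the lowest mutant, and the log2 fold changes were 0.49 ± 0.31 and 0.15 ± 0.15 (SE), with adjusted p of 0.742 and 0.81 by edgeR. Without mutant 1 the log2 fold change of Slc25a29 was 0.31.

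Among the 11 cofactor, nucleotide and glutathione carriers, 7 had a log2 fold change below 0 and 4 above. Slc25a40, 1 of 2 carriers that bring glutathione into mitochondria, was at 25.1, 27.0 and 23.1 CPM in mutant and 46.1, 26.5 and 45.2 CPM in control libraries. The mutants were close together, and control 2 lay among them. The log2 fold change was -0.65 ± 0.22 (SE; unadjusted p 0.0208 and adjusted p 0.644 by edgeR). Without control 2 it was -0.87, and there DESeq2 gave an adjusted p of 0.00593. Slc25a39, the other glutathione carrier, was at 31.9, 33.7 and 38.9 CPM in mutant and 38.9, 43.2 and 37.3 CPM in control libraries. Slc25a39 had 1.27, 1.25 and 1.68 counts per count of Slc25a40 in mutant and 0.843, 1.63 and 0.824 in control libraries, and this was the one pair of 10 in which the mutant ratios had the smaller SD (exact permutation p = 0.3).

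Slc25a42, which brings coenzyme A into the matrix, was at 13.0, 14.2 and 9.78 CPM in mutant and 8.25, 9.60 and 9.25 CPM in control libraries. All mutants were higher, mutant 3 by the least, with a log2 fold change of 0.45 ± 0.21 (SE; adjusted p 0.666 by edgeR). The pyrimidine nucleotide carriers differed widely in level. Slc25a36 was at 87.4, 102 and 73.9 CPM in mutant and 102, 79.5 and 89.8 CPM in control libraries, and Slc25a33 at 3.31, 6.17 and 10.0 CPM in mutant and 8.25, 6.61 and 6.33 CPM in control libraries. Both overlapped between groups. Slc25a51, the NAD carrier, had a log2 fold change of 0.01 ± 0.17 (SE), between -0.14 and 0.11 with single libraries left out.

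The iron carriers went apart in sign. Slc25a37 (mitoferrin-1), best known from red cell precursors, was at 56.9, 61.1 and 63.3 CPM in mutant and 72.1, 69.7 and 71.3 CPM in control libraries. The groups did not overlap, and the log2 fold change was -0.23 ± 0.12 (SE; adjusted p 0.71 by edgeR). Slc25a28 (mitoferrin-2), the form found in most tissues, was at 26.2, 17.8 and 18.1 CPM in mutant and 19.4, 17.6 and 21.6 CPM in control libraries. Its log2 fold change was 0.08 ± 0.20 (SE), and -0.11 without mutant 1. The ratio of Slc25a37 to Slc25a28 did not separate the groups (exact permutation p = 0.3).

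Slc25a30, a relative of the uncoupling proteins, was at 25.9, 32.7 and 34.4 CPM in mutant and 42.4, 40.4 and 36.6 CPM in control libraries. All mutants were lower, with a log2 fold change of -0.36 ± 0.16 (SE; adjusted p 0.659 by edgeR), and of -0.23 without mutant 1. Its relative Slc25a14 had a log2 fold change of -0.14, and of 0.015 without mutant 1. Slc25a46, which sits in the outer membrane and acts in mitochondrial fusion and lipid transfer rather than as a carrier, was at 53.0, 62.1 and 58.3 CPM in mutant and 72.1, 74.4 and 68.1 CPM in control libraries. The groups did not overlap, and the log2 fold change was -0.31 ± 0.13 (SE; unadjusted p 0.0457 and adjusted p 0.645 by edgeR). The 3 tested carnitine, choline and related carriers, among them the acylcarnitine carrier Slc25a20, all had a log2 fold change above 0, from 0.07 to 0.61, though that of Slc25a20 was -0.12 without mutant 1. The highest of these was Slc25a45, at 27.5, 12.2 and 10.4 CPM in mutant and 8.59, 12.3 and 12.0 CPM in control libraries, where mutant 1 alone was high. Its log2 fold change of 0.61 ± 0.37 (SE) was 0.05 without mutant 1.

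**Figure D3:**
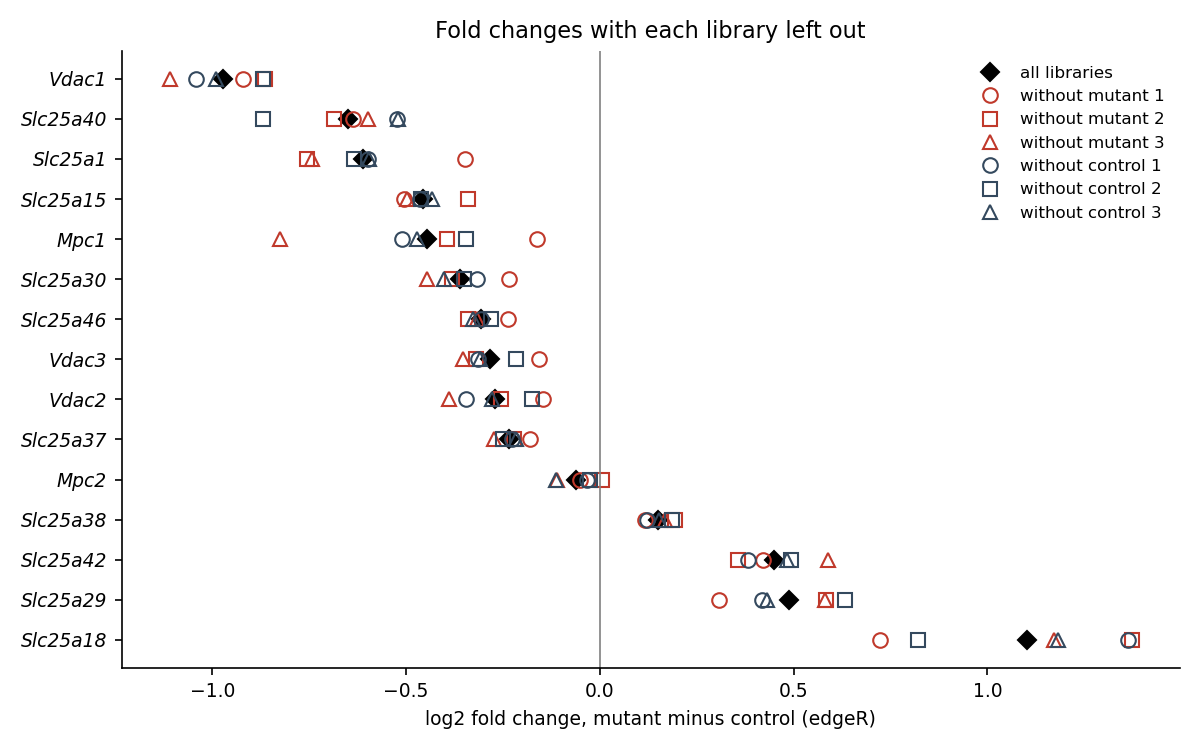
Log2 fold change, mutant minus control (edgeR), of 15 members (the VDAC and MPC genes, the 10 members with the smallest p and those whose groups do not overlap), with all 6 libraries (diamonds) and with each library left out (red symbols for mutants, dark symbols for controls). Vdac1 stays between -1.11 and -0.86, while the point of Slc25a1 without mutant 1, at -0.35, and that of Mpc1 without mutant 3, at -0.83, lie apart from the others of their gene.

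Leaving out single libraries in turn, 27 of the 45 tested members kept 1 sign in all 6 fits, 16 of them lower and 11 higher. The share over all genes tested is not given here, and the 6 fits have most of their libraries in common. The count therefore does not set the members apart from other genes. Among the 10 pairs, 9 had ratios with a larger SD in mutant than in control libraries, and in 2 pairs, both with Vdac1, the groups did not overlap. In 5 of the 10 pairs, Mpc1 to Mpc2, Slc25a13 to Slc25a12, Slc25a37 to Slc25a28, Slc25a33 to Slc25a36 and Slc25a24 to Slc25a23, mutant 1 had the lowest ratio of the 6 libraries. For Slc25a5 to Slc25a4 it had the highest, at 4.28. Whether a ratio is low or high depends on which gene of the pair was put first, so these pairs share no direction. The B cell marker list also varied, with a summed level of 5.00, 48.4 and 10.7 CPM in mutant and 7.26, 2.87 and 4.49 CPM in control libraries, and the CD8 list with 6.56, 17.3 and 9.26 CPM in mutant and 40.4, 8.64 and 5.81 CPM in control libraries. The part of these in the levels of the members was not tested.

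**Figure D4:**
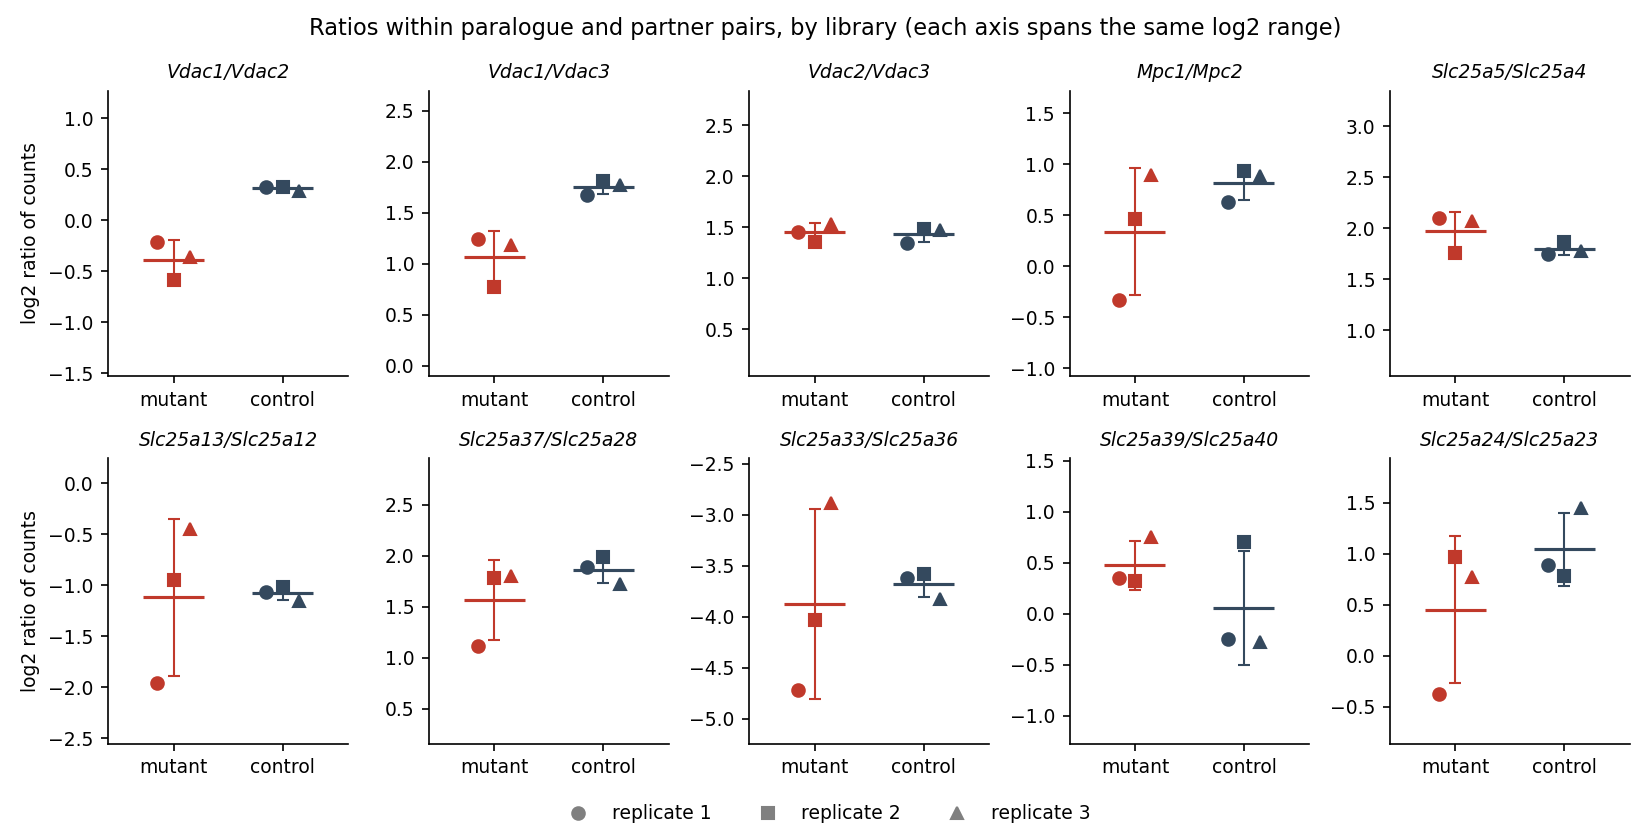
Log2 ratio of the counts of 2 paralogues or partners in each library, mutant left (red) and control right (dark), for 10 pairs; symbols mark the replicate, the line the mean and the bar the SD, and each axis spans the same log2 range. Vdac1/Vdac2 and Vdac1/Vdac3 separate the groups, and the mutant points of Slc25a13/Slc25a12 and Slc25a33/Slc25a36 spread wide around the control points.

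Genes that work beside the carriers gave no call either, with 0 passing in each direction in each of 5 lists. Of 19 genes that import carriers and insert pores, 15 had a log2 fold change below 0 (background 47.1%). Tomm70a, the receptor that takes carrier precursors at the outer membrane, was at 175, 204 and 243 CPM in mutant and 274, 317 and 286 CPM in control libraries (log2 fold change -0.50; adjusted p 0.629 by edgeR). All 3 mutants were lower, as in no other gene of the list (1 of 19; background 7.48%), and in 1 gene, Timm10b, all 3 were higher (background 6.6%). Timm13, a small chaperone of the space between the membranes, had a log2 fold change of -0.31. Of 14 shuttle enzymes, 12 had a log2 fold change below 0, 5 had every mutant library lower and 1, Gpd1, every mutant library higher, against the same background shares. Gpd1 was barely detected, with 13, 11 and 21 counts in mutant and 7, 9 and 7 counts in control libraries. Idh2, the NADP-dependent isocitrate dehydrogenase of the matrix, was at 29.2, 33.4 and 32.8 CPM in mutant and 45.5, 44.5 and 46.4 CPM in control libraries (log2 fold change -0.52; adjusted p 0.598 by edgeR). Got1, the cytosolic aspartate aminotransferase, had a log2 fold change of -0.41.

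The next list holds 13 tested genes: those of pyruvate and lactate dehydrogenase, their regulators, and pyruvate carboxylase (Pcx). Of these, 12 had a log2 fold change below 0 (background 47.1%), with 5 lower in every mutant library (background 7.48%). Pdk1, the kinase that switches pyruvate dehydrogenase off, was at 103, 76.2 and 53.9 CPM in mutant and 138, 103 and 131 CPM in control libraries. Its groups overlapped, mutant 1 being level with control 2, and its log2 fold change was -0.67. Pdp2, a phosphatase that switches it on, was at 31.7, 60.3 and 54.5 CPM in mutant and 70.0, 69.8 and 79.1 CPM in control libraries. All 3 mutants were lower, mutant 1 by the most, and the log2 fold change was -0.58. The medians of the 3 lists were -0.17 for import, -0.19 for the shuttles and -0.19 for pyruvate, against 0.02 for all genes tested. Among 15 VDAC partners and calcium uniporter genes, 7 were below 0 and the median was 0.02. The uniporter pore Mcu had a log2 fold change of -0.26 and the sodium-calcium exchanger Slc8b1 one of 0.40. Among 13 tested genes for other mitochondrial transporters, 9 were below 0, with a median of -0.11. The transporter Abcb8 had a log2 fold change of -0.29, and Sfxn4, of the sideroflexin family, one of -0.66. Counts and medians of the 5 lists without mutant 1 are not given here, and the part of that library in them was not tested.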

How the data were processed

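Libraries depleted of ribosomal RNA were sequenced from 3 mutant and 3 control samples, per the labels' protocols. The submitters' processing notes name STAR 2.7.8a, Partek and the build GRCm39 (mm39). Annotation, read length and strandedness are not given there, so overlapping and antisense genes cannot be told apart. The authors deposited estimated counts per gene without normalization. Whole counts had been assumed when the tests were chosen, and the values were rounded. R 4.3.3 was used. The filter was filterByExpr (minimum count 10) and the scaling TMM, and edgeR 4.0.16 compared all 6 samples by the robust quasi-likelihood test, with Benjamini-Hochberg adjustment over 18323 genes (threshold 0.05). The procedure was also run on simulated counts, and the outcome is not given here. Genes varied independently in them and no library stood apart as mutant 1 did, so they do not show how the test behaves here. Ratios of counts (0.5 added) were compared by exact permutation. Windows of 50 and 100 bases came from GENCODE M21 (GRCm38), promoters from RefSeq (GRCm38.p6). Replicates differed by more than sampling noise (chi-square divided by its degrees of freedom 18.7 to 175).

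Alternatives were DESeq2 1.42.0, limma-voom (limma 3.58.1), other scalings and filters, the replicate number as a block, and each library left out. DESeq2 with libraries left out and sums with pseudogenes were added after seeing the data. The members and lists were chosen with earlier results of these data known. The naming rule took the VDAC and MPC genes, the members of the 10 pairs, the 10 members with the smallest p, those whose groups do not overlap, and up to 2 of highest level per role. Slc25a10, Gpd1 and Timm10b were named after their values were seen.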

Additional observations from a re-analysis of the deposited data

How the results depend on the processing

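The edgeR count of members called stayed at 0 under the other scalings, filters, limma-voom and each library left out, and the members with a log2 fold change below 0 numbered 23 to 28. Vdac1 was negative in each alternative, with an adjusted p from 0.249 to 0.987 over the edgeR and limma fits. DESeq2 called 100 genes, 1 member and Vdac1 at -0.99. With DESeq2 and 1 library left out, chosen after seeing the data, the genes called were 215, 143 and 374 without mutant 1, 2 and 3 and 13, 126 and 17 without control 1, 2 and 3. In the first 5 of these fits Vdac1 was called at -0.95, -0.91, -1.14, -1.08 and -0.86, as the 1 member called except without control 2, where Slc25a40 made 2; without control 3, 0 members were called. The cause was not tested. Of 419 values of the 32 other named members under alternatives, 391 kept their direction and side of the threshold and 28 reversed, 20 of them, in 12 members, with a library left out. The ranges over these fits were -0.43 to 0.016 for Slc25a13, -0.58 to 0.21 for Slc25a33, -0.11 to 0.20 for Slc25a28, -0.16 to 0.73 for Slc25a23, -0.11 to 0.0055 for Mpc2, -0.15 to 0.058 for Slc25a36, -0.27 to 0.050 for Slc25a5, -0.097 to 0.16 for Slc25a3, -0.14 to 0.11 for Slc25a51, -0.12 to 0.18 for Slc25a20, -0.26 to 0.015 for Slc25a14 and -0.13 to 0.18 for Slc25a10. The other 8 lay near 0: Slc25a3 was at -0.0055, -0.016 and -0.023 with DESeq2's size factors, no count filter and DESeq2, and Slc25a51 at -0.00075, -0.012, -0.018, -0.0049 and -0.0046 with these, limma-voom and the replicate block. Of the log2 ratios, Vdac2 to Vdac3 ran from -0.032 to 0.060, Slc25a13 to Slc25a12 from -0.37 to 0.38 and Slc25a33 to Slc25a36 from -0.70 to 0.22. Vdac1 to Vdac2 ran from -0.79 to -0.60 and Vdac1 to Vdac3 from -0.78 to -0.54. Same-numbered libraries did not deviate together (correlations of -0.050, -0.067 and -0.023). With the replicate block, 0 members were called, Vdac1 was at -0.98 (adjusted p 0.774, edgeR), and the exact sign-flip p of the Vdac1 ratios was 0.25, the smallest that 3 pairs allow. The number of samples, 3 a group, limits the precision.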
